A study of Mus musculus with 9 samples.

Results

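The comparison described here is that of mouse brain 4 d after intrastriatal LPS with mouse brain 4 d after intrastriatal PBS, the pair of groups of the study that share a collection time. Lipopolysaccharide (LPS) is a component of the outer membrane of Gram-negative bacteria that is sensed through TLR4, and 4 d was the study's time point for the resolution phase, when the neutrophils of the early response are being cleared. The members were all arrays labelled for these groups, 3 after LPS and 3 after PBS, of 9 arrays in the series, and the other 3 arrays came from mice 1 d after LPS (the induction phase of the study). All mice were male C57Bl/6J, an inbred strain, aged 10 to 12 weeks, with no genetic change, and the PBS mice had the same stereotaxic operation and saline perfusion as the LPS mice. Each array read a pool of RNA from 3 mice, taken from tissue around the injection site in the injected hemisphere, and single animals cannot be seen in these values. PBS tissue from 1 d was not analysed here. The labels give the tissue as brain, and the markers of the injected region were present in every group: the dopamine receptor gene *Drd1* lay at 7.75, 8.10 and 7.96 on the log2 scale in the 3 PBS arrays and at 7.78, 8.05 and 7.58 in the 3 LPS 4 d arrays, and *Ppp1r1b*, which encodes the striatal phosphoprotein DARPP-32, at 8.78, 9.19 and 8.96 and at 8.70, 8.90 and 8.55.

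Innate immune responses in the brain are carried by microglia, the resident macrophages of brain tissue, and by neutrophils and monocytes that enter from the blood. Monocytes that enter can become macrophages, and both these cells and microglia take up dead cells and debris, degrade them in lysosomes and can present peptides on MHC class II. Astrocytes respond with a programme of intermediate filament, acute-phase and complement genes. Since RNA was taken from whole tissue, more cells of a type and more RNA per cell cannot be told apart in any of the values below.

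Values are RMA values, the authors' log2 expression of each probe set after background correction and normalization between arrays. Differences are given in log2 units as LPS 4 d minus PBS, so that 1 is a doubling, and array values are listed in the order of replicates 1, 2 and 3. A probe set was called higher or lower where limma, fitted to all 9 arrays, gave an adjusted p (Benjamini-Hochberg) under 0.05 and the change was 1.5-fold or more. Of 45037 probe sets, 1163 were higher (2.58% of those tested) and 155 were lower (0.344%). With 1 probe set per gene, 720 of 17097 genes were higher (4.21%) and 35 were lower (0.205%). Of the 720 higher genes, 459 had risen at least 2-fold, 163 at least 4-fold, 52 at least 8-fold and 13 at least 16-fold, whereas 5 of the 35 lower genes had fallen at least 2-fold. The median rise among the higher genes was a fold change of 2.37, and the median among all genes was a log2 difference of −0.02. Of the higher genes, 180 had risen from a PBS mean at or below 3.49, the highest level of the nonspecific control probe sets, and for these genes the fold change is limited by background. The probe sets annotated to a single gene made up 79.4% of the higher, 61.3% of the lower and 64.2% of all probe sets.

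**Figure D1:**
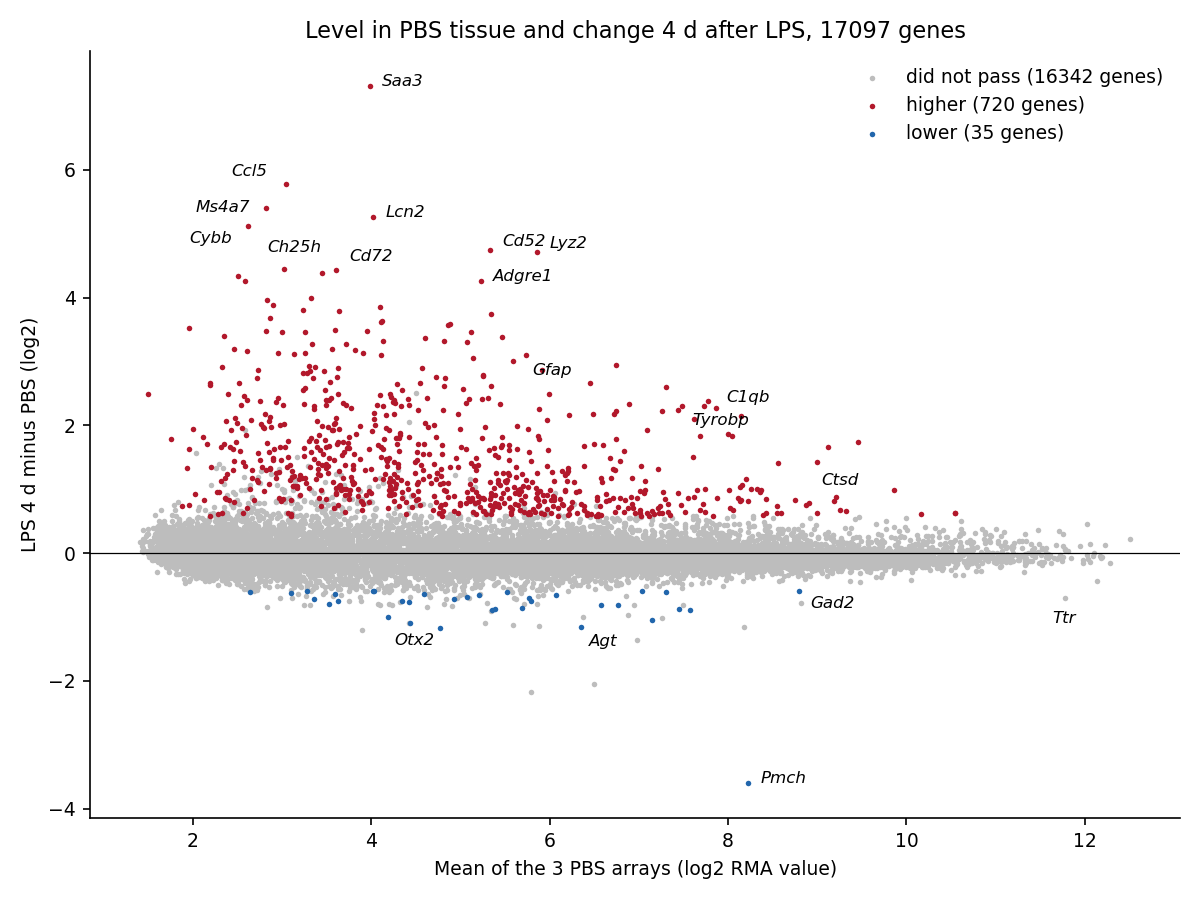
Mean RMA value of the 3 PBS arrays (x axis, log2) against the difference LPS 4 d minus PBS (y axis, log2) for 17097 genes, each point a gene, with the 720 higher genes in red, the 35 lower genes in blue and the others in grey. The higher genes reach a difference of 7.32 (*Saa3*), and the lowest point among those that passed is *Pmch* at −3.60.

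The higher genes were not equally high in the 3 LPS pools. Replicate 2 was the lowest of the LPS 4 d arrays for 545 of the 720 genes and replicate 1 the highest for 372. The median difference from the PBS mean over these genes was 1.33 in replicate 1, 1.06 in replicate 2 and 1.33 in replicate 3. The SD over the 3 LPS arrays had a median of 0.220 over the higher genes, against 0.162 over the 3 PBS arrays for the same genes and 0.122 and 0.106 for all genes. When each of the 6 arrays was left out in turn, 504 of the 720 higher genes passed in all 6 fits, and 5 of the 35 lower genes did. The pairwise correlation across probe sets was 0.992 to 0.993 among the LPS 4 d arrays, 0.994 among the PBS arrays and 0.982 to 0.987 between the groups, and no array stood apart from its group in these values.

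*Saa3*, the acute-phase gene for serum amyloid A3, was the most raised gene 4 d after LPS. Its PBS arrays lay at 4.89, 3.85 and 3.22 and its LPS arrays at 11.51, 10.93 and 11.47, a difference of 7.32 (standard error 0.36, adjusted p = 8.82e-06 from limma). *Ccl5*, a chemokine that attracts T cells and monocytes, went from 2.76, 3.59 and 2.77 to 8.65, 8.57 and 9.22, a difference of 5.77 (standard error 0.25). *Ms4a7*, a membrane protein gene of macrophages, went from 2.80, 2.77 and 2.91, all at background, to 8.46, 7.84 and 8.38, a difference of 5.40 (standard error 0.20). For all 3 genes the gap between the groups was wider than the range within either. *Lcn2*, whose lipocalin product binds bacterial iron carriers, had the widest spread of these genes after PBS, with 3.71, 2.76 and 5.61, against 9.77, 8.75 and 9.32 after LPS, and its difference was 5.26 with a standard error of 0.61. *Cybb*, the catalytic subunit of the phagocyte NADPH oxidase, lay at 2.27, 2.72 and 2.86 and at 7.94, 7.23 and 8.02, a difference of 5.12.

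Genes of leukocytes and macrophages were among the next largest rises. *Cd52*, a small surface glycoprotein gene of leukocytes, went from 5.12, 5.44 and 5.45 to 10.14, 9.76 and 10.36, and *Lyz2*, the lysozyme of phagocytes, from 5.85, 5.77 and 5.96 to 10.74, 10.22 and 10.75. Replicate 2 was the lowest LPS array of both, and *Lyz2* rose by 4.71 with a standard error of 0.14. *Adgre1*, which encodes the macrophage marker F4/80, rose from 4.93, 5.39 and 5.37 to 9.61, 9.22 and 9.63, and *Acp5*, an acid phosphatase of osteoclasts and activated macrophages, from 2.21, 2.31 and 3.00 to 7.03, 6.39 and 7.14. *Ch25h*, which makes the oxysterol 25-hydroxycholesterol, had PBS values of 3.06, 2.88 and 3.14 and LPS values of 7.50, 7.15 and 7.77. *Apoc2*, the cofactor of lipoprotein lipase, rose by 3.96, but with LPS values of 7.32, 5.85 and 7.23, in which replicate 2 lay well below the others. The remaining genes of the 15 were *Cd72* (4.44), *Ms4a6c* (4.39), the chemokine *Ccl3* (4.26) and *Tlr2*, the receptor for bacterial lipoproteins (4.00). In each of the 15 genes, all 3 LPS arrays lay above all 3 PBS arrays, which their choice required. The same held for 12.0% of all genes and for all 720 that passed.

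**Figure D2:**
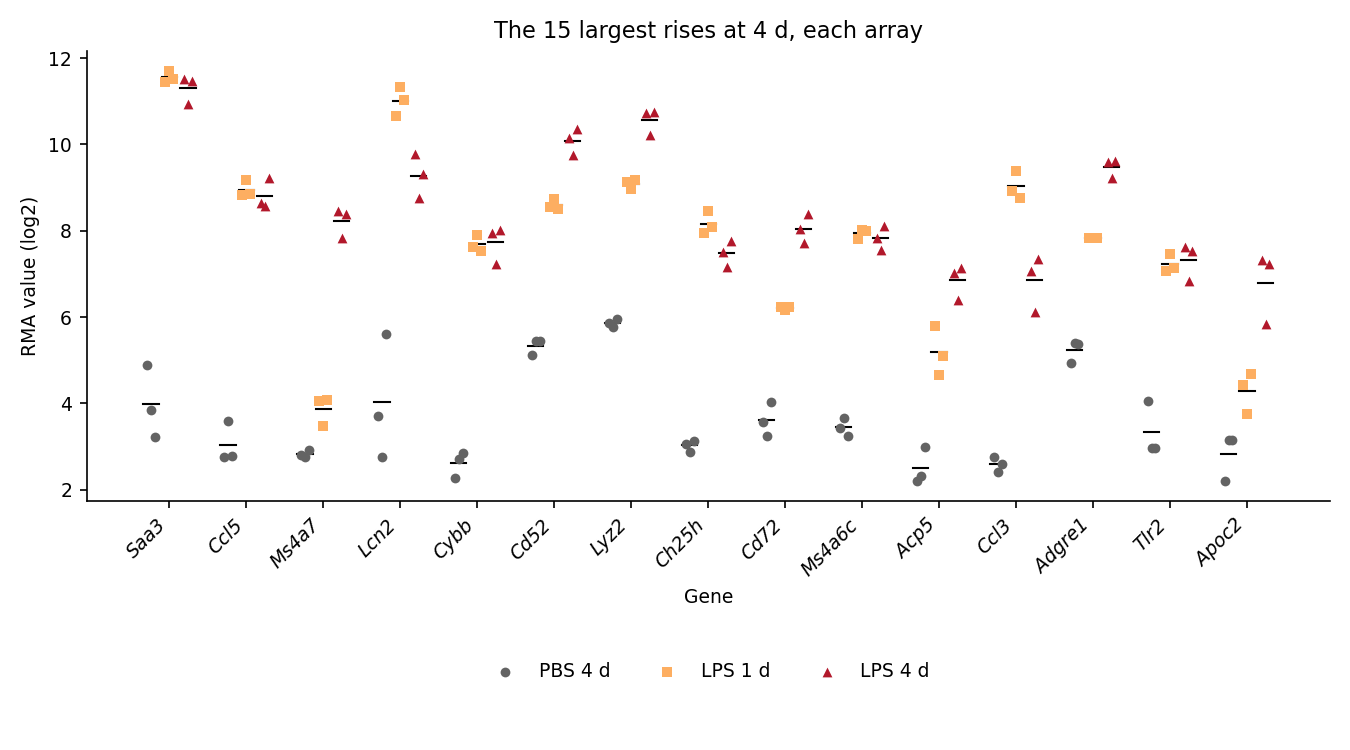
RMA values (y axis, log2) of the 15 genes with the largest rise 4 d after LPS (x axis, in order of the rise), with 3 arrays each for PBS 4 d (grey circles), LPS 1 d (orange squares) and LPS 4 d (red triangles) and a bar at the mean of each group. The LPS 4 d arrays lie above the PBS arrays for every gene, a condition of the choice. The mean of *Ms4a7* lies 1.04 above its PBS mean at 1 d and 5.40 above it at 4 d.

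The genes were then read by function in 59 lists of cell type markers and pathways, with 917 genes measured, of which 309 were higher and 5 were lower. Against the background of 4.21% of all genes higher, the share was 10 of 11 genes of phagocyte killing, 23 of 27 leukocyte signalling genes, 14 of 18 reactive astrocyte genes and 0 of 11 striatal neuron genes. Because the lists were written with earlier results of these data known, their counts are descriptions of what rose and not tests of the lists.

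**Figure D3:**
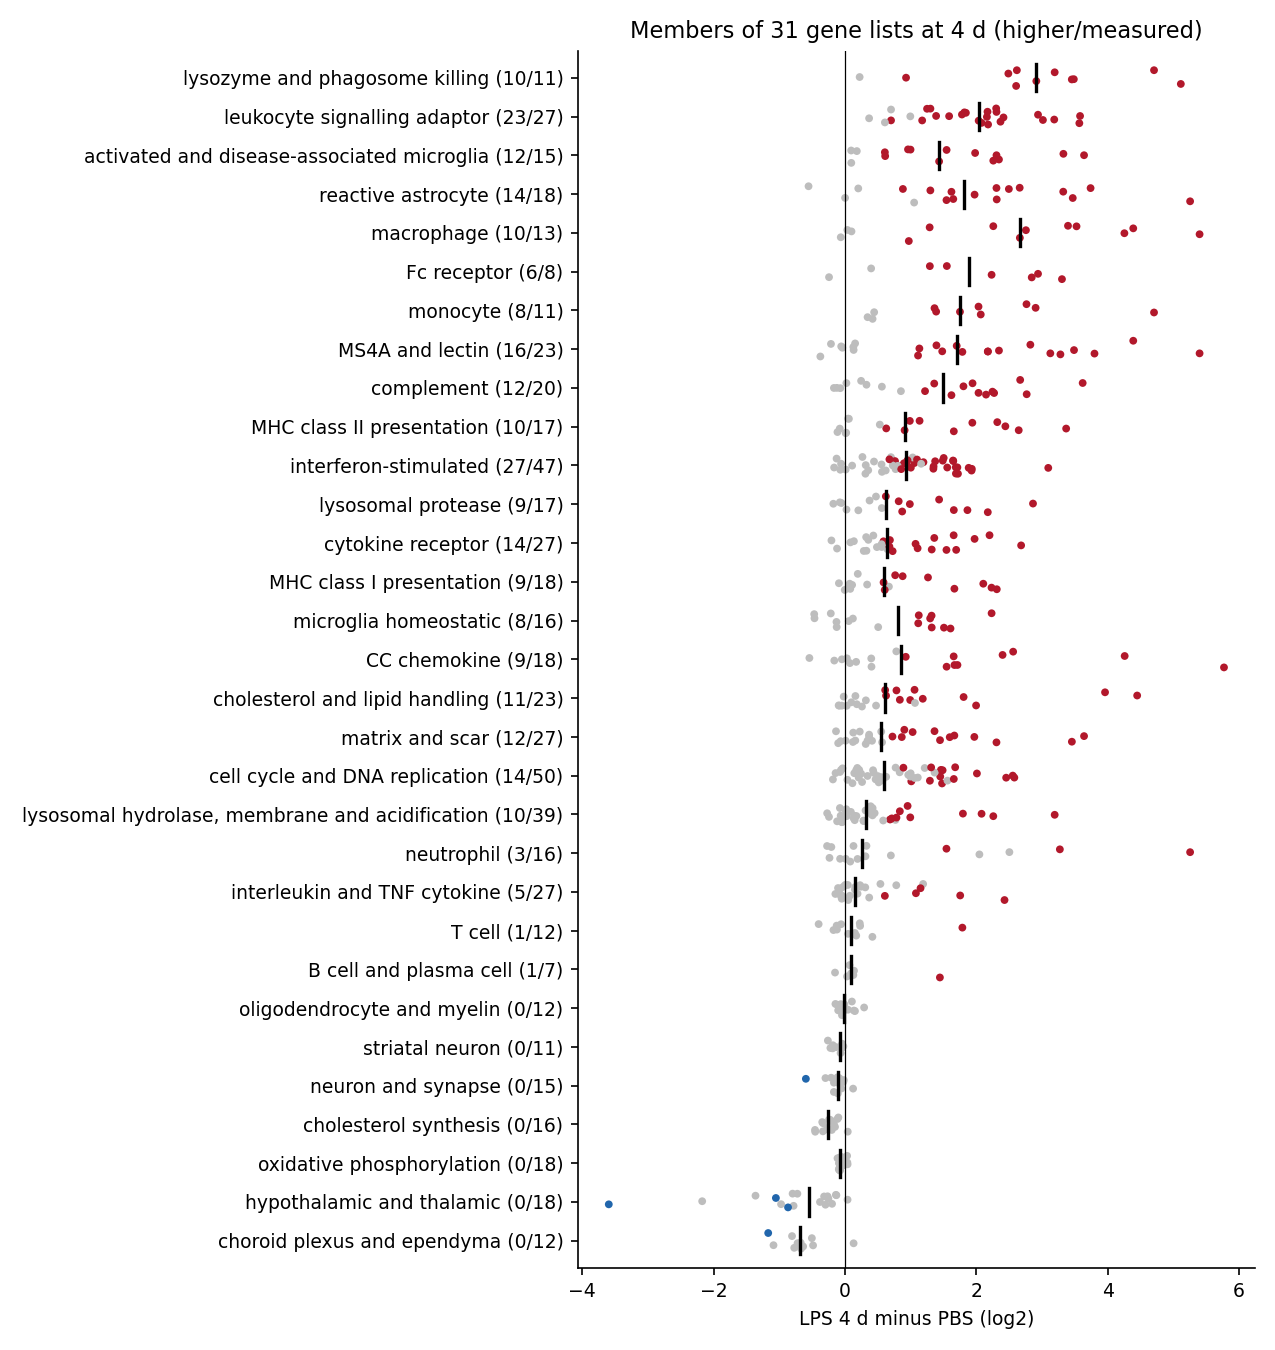
Difference LPS 4 d minus PBS (x axis, log2) of each measured member of 31 gene lists (y axis), with the members called higher in red, lower in blue and the others in grey, a black bar at the median of the list, and the number higher of the number measured beside its name. The lists of phagocytes, complement and antigen presentation lie to the right of 0, those of neurons, myelin and oxidative phosphorylation lie around it, and the hypothalamic, thalamic and choroid plexus markers lie to its left.

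Markers of microglia were raised in part. Of 16 genes typical of microglia in the healthy brain, 8 were higher and none passed as lower, with a median difference of 0.81. The microglial Fc receptor-like gene *Fcrls* went from 6.85, 6.67 and 6.70 to 8.90, 8.81 and 9.23, the fractalkine receptor gene *Cx3cr1* from 7.64, 7.56 and 7.62 to 9.21, 8.99 and 9.15, and *Trem2*, a receptor for lipids and apoptotic cells, from 5.41, 5.74 and 5.47 to 7.38, 7.02 and 7.05. *Csf1r*, the receptor on whose signal microglia depend, rose by 1.32, and *Tmem119* by 1.12. By contrast, the purinergic receptor gene *P2ry12*, by which microglia sense extracellular nucleotides, lay at 7.32, 7.21 and 6.93 after PBS and at 6.76, 7.01 and 6.28 after LPS, a difference of −0.47 that did not pass (adjusted p = 0.397, 95% confidence interval −1.03 to 0.09), and *Gpr34* differed by −0.13. *Tmem119* and *P2ry12*, both used to tell microglia from other macrophages, thus differed in opposite directions from PBS, and the difference between them was not tested. At 1 d after LPS, measured against the same 3 PBS arrays, 0 of these genes were higher and 3 lower, with a median of −0.25 (3.86% of all genes were higher and 0.532% lower at 1 d).

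Of 15 genes that activated and disease-associated microglia express, 12 were higher, with a median of 1.43. *Lgals3*, which encodes the lectin galectin-3 of phagocytes, rose from 4.23, 3.96 and 4.18 to 8.42, 7.06 and 7.81. *Gpnmb*, a glycoprotein gene of lipid-laden phagocytes, rose from 4.13, 3.91 and 4.35 to 8.24, 6.89 and 7.25, with replicate 1 clearly the highest. *Clec7a*, the receptor for fungal glucans, rose by 2.35, *Cd68*, an endolysosomal protein of macrophages, by 2.26, and *Tyrobp*, the signalling adaptor of TREM2, by 2.31 with a standard error of 0.10. *Aif1*, which encodes the microglia and macrophage protein IBA1, went from 5.85, 5.68 and 5.69 to 8.85, 8.63 and 9.05, and *Ptprc*, which encodes CD45, from 4.56, 4.97 and 5.11 to 8.52, 8.21 and 8.66.

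Most macrophage and monocyte markers were raised. Of 13 macrophage markers, 10 were higher (median 2.66), among them *Marco*, a scavenger receptor for bacteria, which rose from 1.89, 2.10 and 1.89 to 6.04, 4.66 and 5.76, and *Stab1*, an endocytic receptor, which rose from 4.995, 4.66 and 4.53 to 7.72, 7.24 and 7.50. *Cd5l*, a secreted scavenger receptor family protein of tissue macrophages, went from 2.26, 2.48 and 2.32 to 5.05, 5.87 and 6.33, a difference of 3.40 (standard error 0.29). At 1 d the mean of *Cd5l* differed from PBS by 0.26, and from 1 d to 4 d it rose by 3.14 (standard error 0.29, adjusted p = 0.000799 from limma). Of 11 monocyte markers, 8 were higher, among them *Cd14*, the coreceptor for LPS (2.90), *Plac8* (2.07), *Itgal*, the alpha chain of the integrin LFA-1 (2.77), and *Chil3*, a chitinase-like protein gene (1.75). The chemokine receptor gene *Ccr2*, which defines inflammatory monocytes, had PBS values of 2.97, 3.39 and 3.11 and LPS values of 3.39, 3.55 and 3.80, a difference of 0.42 that did not pass (adjusted p = 0.18), and the PBS mean lay at background. *Ccr2* had 4 probe sets, and the mean over them did pass, at 0.71 (adjusted p = 0.00437).

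Neutrophil markers were mostly not called at 4 d. Of 16 markers, 3 were higher, *Lcn2*, the formyl peptide receptor gene *Fpr2* (3.27) and *Csf3r*, the receptor for the neutrophil growth factor G-CSF (1.55), and none of these is expressed by neutrophils alone. The calprotectin genes *S100a8* and *S100a9*, which make up much of the cytosolic protein of neutrophils, did not pass. *S100a8* lay at 5.59, 3.24 and 4.67 after PBS and at 7.84, 6.28 and 6.89 after LPS, a difference of 2.50 (standard error 0.61, adjusted p = 0.0628), and *S100a9* at 5.49, 3.22 and 4.56 and at 6.98, 6.40 and 6.03, a difference of 2.05 (adjusted p = 0.0974). For both genes all LPS arrays lay above all PBS arrays, as for 12.0% of all genes, and the spread among the PBS arrays was wide. Without PBS replicate 1, in which both genes were highest, the differences were 3.05 for *S100a8* and 2.58 for *S100a9*, both passed, and 5 of the 16 markers were higher. At 1 d the same differences were 5.59 and 5.87, and 11 of the markers were higher.

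The calls among lymphocyte markers were at levels near background. Of 12 T cell markers 9 lay at background in both groups, and the 1 that was higher was *Ms4a4b*, which went from 1.75, 1.74 and 1.78 to 3.71, 3.11 and 3.81. The T cell receptor chain gene *Cd3e* lay at 2.92, 2.72 and 2.87 and at 2.36, 2.93 and 2.69, all at background. Of 7 B cell markers the 1 that was higher was *Cd79b* (from 2.41, 2.46 and 2.51 to 4.02, 3.86 and 3.84), whereas *Cd79a*, its partner in the B cell receptor, lay at 2.55, 2.24 and 2.27 and at 2.73, 2.28 and 2.47, all at background. Of 9 natural killer cell markers 3 were higher, *Gzma* (0.87), *Klrd1* (0.75) and *Nkg7* (0.74), all from and to levels at or close to background, and *Klrd1* passed in 2 of the 6 fits with an array left out. With probe sets whose mean over the 9 arrays lay at background left out, 0 of the T cell, B cell and natural killer cell markers were called. *Itgax*, a marker of dendritic cells and activated microglia, was the 1 of 7 dendritic cell markers that passed, with 2.50, 2.20 and 2.18 and 3.29, 3.40 and 3.07, also at background.

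Genes of killing in phagosomes formed the list with the largest share of rises among the 59. Of 11 genes of lysozymes, NADPH oxidase and phagosomal transport, 10 were higher, with a median of 2.91. Beside *Cybb* and *Lyz2*, they included *Rac2*, the GTPase that activates the oxidase, which rose from 3.69, 4.10 and 4.09 to 7.51, 7.17 and 7.65, *Slc11a1*, the phagosomal metal transporter, which rose from 3.81, 3.37 and 3.50 to 7.07, 6.34 and 6.85, and the itaconate-forming enzyme *Acod1*, which rose from 3.27, 3.25 and 3.25 to 7.34, 5.76 and 7.04. Replicate 2 had the lowest value of the 3 LPS arrays for each of these genes, and all 3 of its values lay well above the PBS arrays.

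Of 8 receptors for antibody Fc regions and their shared chain, 6 were higher. The inhibitory receptor gene *Fcgr2b* went from 4.93, 4.91 and 5.39 to 8.60, 8.14 and 8.41, and *Fcer1g*, the signalling chain of the activating receptors, from 6.71, 6.76 and 6.77 to 9.72, 9.41 and 9.93. The activating receptor genes *Fcgr4* and *Fcgr1* rose by 2.84 and 1.55. Of 20 complement genes, 12 were higher (median 1.49). The C1q chains, which bind antibody, debris and synapses to start the classical pathway, rose together, *C1qb* from 7.81, 7.88 and 7.91 to 10.15, 10.04 and 10.23 and *C1qc* from 7.54, 7.53 and 7.26 to 9.75, 9.62 and 9.69. *C4b*, the next component of that pathway, rose by 2.67, and the receptors for the anaphylatoxins rose by 3.62 for *C3ar1* and by 1.94 for *C5ar1*. At 1 d the differences were 0.94 and 0.64 for the C1q chains and 3.35 for *C5ar1*, against the same PBS arrays.

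Lysosomal genes followed. Of 17 lysosomal proteases, 9 were higher and none passed as lower, with a median of 0.62. *Ctsc*, which activates granule proteases, rose from 5.90, 5.90 and 5.96 to 8.91, 8.51 and 8.94, *Ctsh* from 6.56, 6.50 and 6.41 to 8.82, 8.46 and 8.72, *Ctsz* by 1.87, *Ctss*, which cuts the invariant chain of MHC class II, from 9.01, 9.21 and 9.16 to 10.85, 10.63 and 10.87, and *Ctsd*, the main aspartic protease of lysosomes, from 9.00, 9.03 and 8.98 to 10.68, 10.24 and 10.38. Replicate 2 was the lowest LPS array for each of these genes with listed values. At 1 d 3 of these genes were higher, and *Ctsd* differed from PBS by 0.05. Of 39 other lysosomal genes (hydrolases, membrane proteins and the proton pump), 10 were higher, led by *Slc11a1*, *Cd68*, *Laptm5* (2.08), the glucuronidase gene *Gusb* (1.80) and the hexosaminidase gene *Hexa* (1.00). The median of this list was 0.31, and 29 of its genes did not pass. Of 32 phagocytic and scavenger receptors, 11 were higher, with *Marco* and *Cd5l* first.

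MHC class II presentation was raised at 4 d. Of 17 genes, 10 were higher, with a median of 0.91. The count was 7 without PBS replicate 2 and 8 in each of the other fits with an array left out. The class II alpha chain gene *H2-Aa* went from 4.35, 4.05 and 4.47 to 7.11, 6.72 and 6.98 (difference 2.65, standard error 0.14, adjusted p = 1.14e-05 from limma), and the beta chain genes *H2-Ab1* and *H2-Eb1* rose by 2.32 and 2.44. *Cd74*, the invariant chain that guards the class II groove, rose from 3.56, 3.83 and 3.55 to 5.43, 5.37 and 5.96, and *Ifi30*, a lysosomal thiol reductase that opens proteins for class II loading, from 4.64, 4.25 and 4.93 to 8.25, 7.65 and 8.02. At 1 d the 3 class II chain genes differed from PBS by 0.70, 0.91 and 0.12, and in the direct comparison of 4 d with 1 d they were higher by 1.94 (adjusted p = 0.000293), 1.41 (adjusted p = 0.0135) and 2.33 (adjusted p = 0.00111), all from limma. Of 18 MHC class I genes, 9 were higher, and 5 without PBS replicate 2. The classical genes *H2-D1* and *H2-K1* rose by 2.23 and 2.11 and the immunoproteasome subunits *Psmb8* and *Psmb9* by 2.31 and 1.67. At 1 d 11 of the class I genes were higher (median 1.04, against 0.60 at 4 d), with differences of 2.32 for *H2-D1* and 2.30 for *H2-K1*. In the direct comparison of 4 d with 1 d, 4 class I genes were lower and 0 higher, where 1.84% of all genes were higher and 1.37% lower. H2 genes are near-identical copies of each other in part, and a probe set named for 1 of them can take signal from another.

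Interferon-stimulated genes were still raised in part. Of 47 such genes, 27 were higher at 4 d (median 0.93), and at 1 d 42 were (median 2.37). In the direct comparison 33 of them had fallen from 1 d to 4 d and 0 had risen. *Ifi27l2a* went from 3.62, 4.72 and 3.99 after PBS to 6.93, 7.01 and 7.68, the antiviral gene *Oasl2* from 2.93, 3.66 and 4.13 to 5.42, 5.40 and 5.71, and *Iigp1*, an interferon-inducible GTPase, from 4.62, 4.47 and 3.88 to 6.09, 6.25 and 6.29. *Ifitm3*, a membrane protein gene whose product blocks virus entry, had the least spread of these, with 7.07, 7.05 and 7.16 and 9.10, 8.90 and 9.07. For *Oasl2* the difference from PBS was 1.93 at 4 d and 4.24 at 1 d, for *Iigp1* 1.88 and 4.22, and for *Ifi27l2a* 3.10 and 3.83. Of 14 interferon regulatory factors and STAT genes, 5 were higher, and *Irf8*, a lineage factor of microglia and macrophages, rose most, by 1.82 (from 4.60, 4.54 and 5.04 to 6.79, 6.21 and 6.64). This count was 3 without LPS replicate 1 or 3 or PBS replicate 1 or 3, since *Irf5* (0.99) and *Stat3* (0.65) then missed the threshold.

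Part of the chemokine genes stayed raised, and their values lay below, at or above those at 1 d. Of 18 CC chemokines, 9 were higher at 4 d (9 at 1 d), and in the direct comparison 5 had fallen and 1 had risen from 1 d to 4 d. *Ccl3*, which attracts monocytes and T cells, lay at 7.08, 6.12 and 7.36 at 4 d, 8.93, 9.38 and 8.77 at 1 d and 2.76, 2.42 and 2.60 after PBS, *Ccl12* at 5.92, 5.45 and 6.30, 8.77, 8.90 and 9.09 and 3.37, 3.21 and 3.90, and *Ccl9* at 6.89, 6.73 and 7.12, 6.71, 7.08 and 7.17 and 4.49, 4.22 and 4.34. The groups did not overlap between 4 d and PBS in any of them, as in 12.0% of all genes with 4 d higher. *Ccl9* differed by −0.08 between the times. Of 14 chemokines of other classes, 5 were higher at 4 d. *Cxcl13*, a chemokine for B cells, went from 3.29, 2.74 and 2.58 to 6.68, 5.96 and 6.999, with 5.15, 4.93 and 5.41 at 1 d. *Cxcl16*, a membrane-bound chemokine and scavenger receptor, rose by 3.13. *Cxcl10*, which is induced by interferon, lay at 5.54, 4.92 and 5.94 at 4 d and at 9.23, 9.83 and 9.61 at 1 d. The neutrophil chemokines *Cxcl1* (1.70 at 4 d) and *Cxcl5* (1.34) each passed in 1 of the 6 fits with an array left out, and the list count was 3 in the fits without LPS replicate 1 or 3 or without any of the PBS replicates.

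Part of the cytokine genes were called. Of 27 interleukin and TNF family genes, 5 were higher (18.5%, against 4.21% of all genes), and 16 lay at background in both groups. *Tnfsf13b*, the B cell survival factor BAFF, went from 3.14, 3.73 and 3.77 to 6.04, 5.45 and 6.43, a difference of 2.43. *Tnf* lay at 2.91, 2.91 and 2.36 and at 4.13, 3.86 and 3.65, and *Il1b*, the inflammasome product interleukin-1 beta, at 2.81, 4.09 and 3.24 and at 5.40, 4.72 and 5.29, a difference of 1.76 against 4.97 at 1 d. *Il1b* passed in 2 of the 6 fits with an array left out. The list count was 3 without PBS replicate 2 and 2 in each of the fits without LPS replicate 1 or 3 or PBS replicate 1 or 3. Of 27 cytokine receptors, 14 were higher. *Csf2rb*, the shared receptor chain for GM-CSF, interleukin-3 and interleukin-5, went from 3.23, 3.57 and 3.81 to 6.60, 5.63 and 6.43, *Tnfrsf1b*, the inducible TNF receptor, from 4.26, 3.75 and 4.07 to 6.32, 5.94 and 6.43, and *Il10ra*, a receptor chain for the anti-inflammatory interleukin-10, by 1.66. The share of members called was not tested for a difference between the cytokine and receptor lists.

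Genes of pattern recognition and of its feedback were raised. The list of Toll-like receptors with their adaptors had 8 higher members of 17. *Tlr2* went from 4.06, 2.96 and 2.96 to 7.61, 6.83 and 7.53, *Tlr1*, its partner for lipoproteins, from 2.99, 2.20 and 3.51 to 6.69, 6.35 and 7.31, and *Tlr7*, a sensor of single-stranded RNA, by 1.38. *Unc93b1*, which carries nucleic acid sensing receptors to endosomes, rose by 1.46. Among 23 genes of NF-kB and of feedback on it, 11 were higher, with 6 without LPS replicate 1 and 7 without LPS replicate 3. *Irak3*, an inhibitor of Toll-like receptor signalling, rose from 3.03, 2.14 and 2.22 to 5.76, 5.03 and 6.19, *Socs3*, which limits STAT3 signalling, from 3.87, 3.57 and 3.35 to 5.61, 5.70 and 5.60, and *Nfkbiz*, a nuclear regulator of NF-kB targets, from 5.04, 5.35 and 4.91 to 7.57, 7.21 and 7.73. *Socs3* differed by −1.87 from its level at 1 d (adjusted p = 0.00116 from limma), and for *Irak3* this difference was −0.22 and did not pass (adjusted p = 0.834).

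Of 27 signalling proteins that leukocytes use, 23 were higher and all had a difference above 0, with *Ptprc* (3.58), the adaptor gene *Fyb* (3.57), the phosphatase SHP-1 gene *Ptpn6* (3.19) and the actin-bundling *Lcp1* (3.02) among the largest. Of 20 adhesion genes, 9 were higher. The shared beta chain of leukocyte integrins, *Itgb2*, rose from 5.53, 5.16 and 5.06 to 8.18, 7.78 and 8.09, and its ligand *Icam1* from 3.42, 3.50 and 2.78 to 6.08, 5.02 and 6.26. Of 20 myeloid transcription factors, 9 were higher, with *Cebpd* (2.44), *Runx1* (2.25), *Ikzf1* (2.17) and *Spi1*, which encodes the macrophage lineage factor PU.1 (1.80), among them. Of 23 MS4A family and lectin genes, 16 were higher, and *Ms4a6c*, *Ms4a6d* and *Ms4a6b* rose by 4.39, 3.80 and 3.28. *Ms4a7* rose at 4 d over its level at 1 d by 4.36, whereas the 3 *Ms4a6* genes differed between the times by −0.11, −0.56 and −0.30, none of which passed. Of 17 chemotactic receptors 5 were higher, of 16 costimulation and checkpoint genes 5, and of 15 inflammasome and cell death genes 5.

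Genes of dividing cells were higher at 4 d, with large differences between the pools. Of 50 genes, 14 were higher, with a median of 0.60, and 9 of those had a PBS mean at background. *Mki67*, the proliferation antigen Ki-67, went from 2.59, 2.23 and 2.90 to 5.28, 4.40 and 5.41, a difference of 2.46 (standard error 0.30, adjusted p = 0.00167 from limma). *Cdk1*, the kinase that drives mitosis, went from 4.10, 3.14 and 3.20 to 6.64, 5.11 and 6.36, and *Ube2c*, which marks mitotic proteins for degradation, from 3.00, 3.35 and 3.42 to 6.53, 4.87 and 6.11. *Top2a*, the topoisomerase of dividing cells, lay at 3.35, 2.57 and 3.02 and at 5.58, 3.93 and 5.45, and *Rrm2*, which makes deoxyribonucleotides, at 3.62, 3.09 and 3.89 and at 5.51, 4.48 and 5.64. LPS replicate 2 was the lowest of the 3 LPS arrays in each of these 5 genes. Over the whole list the median difference from the PBS mean was 0.85 in replicate 1, 0.34 in replicate 2 and 0.77 in replicate 3. The count of 14 was 7 without LPS replicate 1, 8 without LPS replicate 3, 7 without PBS replicate 2, 8 without PBS replicate 3 and 24 without LPS replicate 2. *Top2a* passed in 1 of these 6 fits, *Rrm2* in 3, and *Mki67*, *Cdk1* and *Ube2c* in all 6. At 1 d 4 of the genes were higher, with a list median of 0.01. From 1 d to 4 d *Mki67*, *Cdk1* and *Ube2c* rose by 2.43, 2.77 and 2.75 (adjusted p = 0.00304, 0.00584 and 0.00565 from limma). Among genes of the replication fork, the difference was 0.14 for the sliding clamp *Pcna*, 0.21 for *Mcm2* and 0.04 for *Mcm5*, and none of these passed. With limma's trend and robust options 23 genes of the list were higher, with an ordinary test 5 on 9 arrays and 0 on 6.

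**Figure D4:**
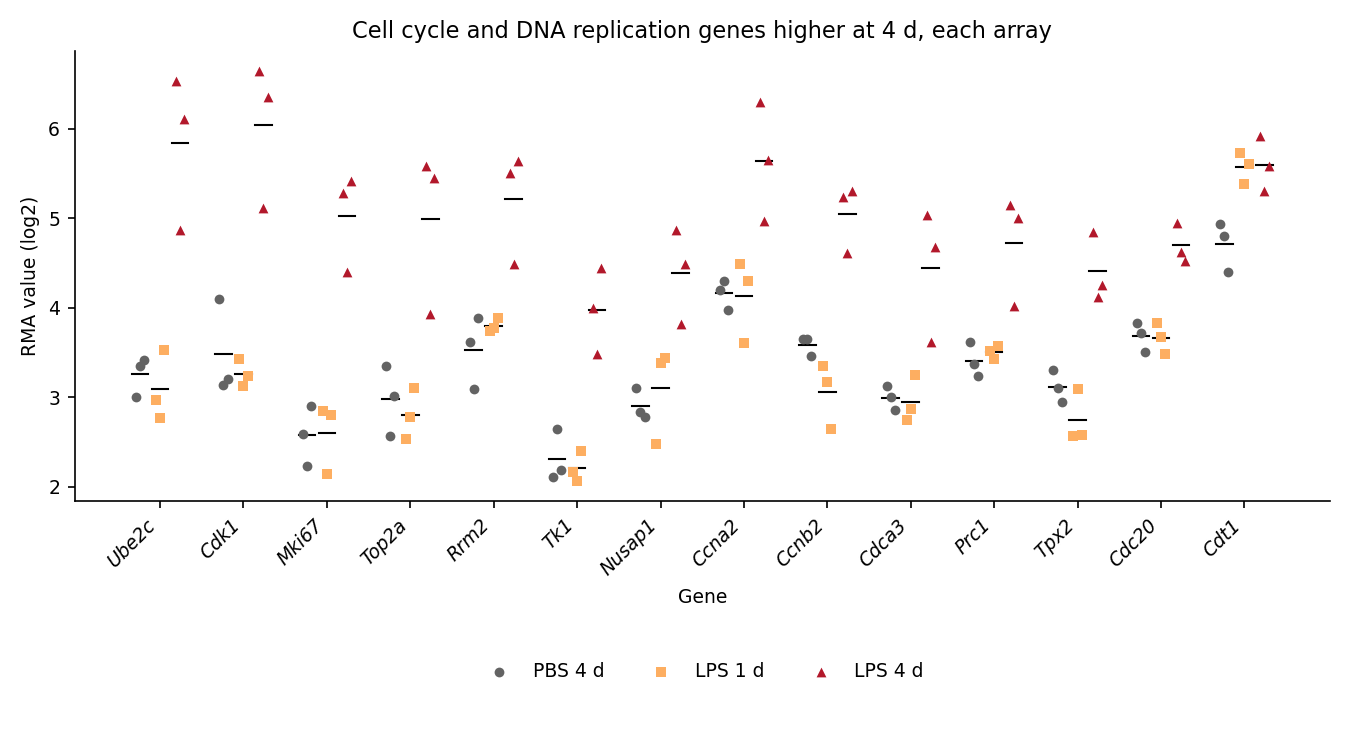
RMA values (y axis, log2) of the 14 cell cycle and DNA replication genes called higher at 4 d (x axis, in order of the rise), with 3 arrays each for PBS 4 d (grey circles), LPS 1 d (orange squares) and LPS 4 d (red triangles) and a bar at each mean. The lowest LPS 4 d array for *Ube2c* (4.87), *Cdk1* (5.11) and *Mki67* (4.40) is replicate 2 and still lies above every PBS array, and the 1 d arrays of these genes reach no higher than 3.53, 3.43 and 2.85.

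To show sequence that the genes of 5 raised lists share or lack, the 250 bases before the start were searched for 4 short motifs on both strands, in RefSeq promoters of build GRCm38.p6 matched by symbol. TTTCNNTTT, letters of the element bound by interferon-activated factors, occurred in 14 of 24 promoters of the interferon-stimulated genes that were higher at 4 d (58.3%), in 53.5% over their whole list, in 13.4% of the 717 promoters of all higher genes and in 9.37% of all 32851 promoters. ATTGG, the CCAAT box read on the opposite strand, occurred in 10 of 13 promoters of the higher cell cycle genes, in 6 of 9 of the higher MHC class II genes (32 of 45 and 11 of 15 over the whole lists) and in 33.9% of all promoters. TTTGAA, the letters of the cell cycle homology element of mitotic genes, occurred in 7 of the 13 promoters of higher cell cycle genes, each of which also held ATTGG, in 10 of 45 over the whole cell cycle list and in 15.99% of all promoters, with both motifs together in 5.55%. CACGTG, the core of the element bound by the lysosomal regulator TFEB, occurred in 4 of 9 promoters of higher lysosomal proteases, in 0 of 10 of the other higher lysosomal genes (10 of 41 over that whole list and 5 of 14 over all listed proteases) and in 6.02% of all promoters. These are matches of letters, some in several promoters of 1 gene, and they show no binding.

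Promoters on a chromosome set aside beforehand were not considered for printing, whatever their letters, so a higher gene with a larger rise can be missing. Among the other higher genes holding the letters in the 150 bases before the start, the 2 with the largest rise were taken for each list. These stretches of 150 bases are printed to let the motifs be seen in place. Each reads 5′ to 3′ towards the start of its gene, with the motif of its list in capitals, TTTCNNTTT for *Ifi205* (chr1:174031756-174031905, minus strand) and *Trim30a* (chr7:104465194-104465343, minus strand), ATTGG for *H2-Aa* (chr17:34287824-34287973, minus strand) and *H2-Eb1* (chr17:34305717-34305866, plus strand), TTTGAA and ATTGG for *Ube2c* (chr2:164769779-164769928, plus strand) and *Cdk1* (chr10:69352913-69353062, minus strand), and CACGTG for *Ctsd* (chr7:142387828-142387977, minus strand) and *Lgmn* (chr12:102439093-102439242, minus strand).
Ifi205: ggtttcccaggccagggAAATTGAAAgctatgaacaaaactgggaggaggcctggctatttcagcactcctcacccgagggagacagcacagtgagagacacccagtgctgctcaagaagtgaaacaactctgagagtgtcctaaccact
Trim30a: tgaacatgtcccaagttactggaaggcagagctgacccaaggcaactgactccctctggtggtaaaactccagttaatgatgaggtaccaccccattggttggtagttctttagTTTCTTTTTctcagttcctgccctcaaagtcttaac
H2-Aa: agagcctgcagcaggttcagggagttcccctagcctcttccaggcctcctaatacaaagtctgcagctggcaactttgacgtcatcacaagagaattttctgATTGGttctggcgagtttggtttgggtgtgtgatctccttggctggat
H2-Eb1: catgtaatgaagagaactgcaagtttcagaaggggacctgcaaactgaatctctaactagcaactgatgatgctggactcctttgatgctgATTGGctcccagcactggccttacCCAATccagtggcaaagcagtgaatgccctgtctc
Ube2c: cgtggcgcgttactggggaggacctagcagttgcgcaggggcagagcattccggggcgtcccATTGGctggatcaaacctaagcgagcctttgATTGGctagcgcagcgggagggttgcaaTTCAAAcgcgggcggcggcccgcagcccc
Cdk1: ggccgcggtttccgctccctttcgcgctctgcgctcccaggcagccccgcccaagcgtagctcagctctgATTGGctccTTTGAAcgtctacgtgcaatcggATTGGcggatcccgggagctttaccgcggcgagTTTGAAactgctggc
Ctsd: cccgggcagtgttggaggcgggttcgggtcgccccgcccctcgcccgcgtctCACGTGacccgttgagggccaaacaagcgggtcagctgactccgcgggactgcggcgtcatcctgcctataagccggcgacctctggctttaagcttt
Lgmn: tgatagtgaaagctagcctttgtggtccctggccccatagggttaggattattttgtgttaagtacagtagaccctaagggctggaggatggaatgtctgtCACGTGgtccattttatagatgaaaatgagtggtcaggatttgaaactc
*Ube2c* and *Cdk1* each hold ATTGG in 2 places of this stretch, and TTTGAA stands on the other strand of *Ube2c* and in 2 places of *Cdk1*. ATTGG starts 48 bases before the start of *H2-Aa* and 59 before that of *H2-Eb1*, and *H2-Eb1* also holds it on the other strand. The CACGTG of *Ctsd* starts 98 and that of *Lgmn* 49 bases before the start, and CACGTG reads the same on both strands. *Trim30a* and *Lgmn* rose by 1.71 and 0.99 and were chosen for their letters after values were seen.

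Reactive astrocyte genes were raised at both times. Of 18 reactive astrocyte genes, 14 were higher (median 1.81), and at 1 d 17 were (median 2.57). *Gfap*, the astrocyte intermediate filament, went from 6.09, 5.83 and 6.06 to 8.61, 8.41 and 8.44, with 8.72, 8.97 and 8.76 at 1 d. *Serpina3n*, a secreted serine protease inhibitor, went from 5.43, 5.13 and 5.45 to 9.53, 8.64 and 9.08, with 10.12, 10.50 and 10.25 at 1 d, and *Timp1*, an inhibitor of matrix metalloproteinases, from 2.49, 3.50 and 3.03 to 7.15, 5.63 and 6.65, with 8.75, 9.60 and 8.94 at 1 d. *Osmr*, the oncostatin M receptor, rose by 1.97. Of 11 genes of astrocytes in general, the 1 that was higher was the water channel gene *Aqp4*, from 9.24, 9.20 and 9.17 to 10.23, 9.84 and 10.19, and the gap junction gene *Gja1* differed by 0.40 (adjusted p = 0.0563).

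Some acute-phase, iron and lipid genes were raised, several of which are described above. Of 17 acute-phase genes, 8 were higher, among them *Saa3*, *Serpina3n* and *A2m*, a protease trap, which rose by 2.62. Of 17 iron and haem genes, 7 were higher, with *Lcn2*, *Slc11a1* and the ferrireductase gene *Steap4* (2.66) among them, and *Cp*, the copper ferroxidase ceruloplasmin, went from 4.75, 4.71 and 5.003 to 8.26, 7.75 and 8.43. Of 23 lipid handling genes, 11 were higher, led by *Ch25h*, *Apoc2* and the lipid droplet gene *Plin2*, which went from 5.62, 5.64 and 5.63 to 8.20, 7.23 and 7.46. All 16 genes of cholesterol synthesis failed to pass, 15 of them with a difference below 0 and a median of −0.25, and *Sqle*, an enzyme of this pathway, lay at 8.18, 8.18 and 8.08 and at 7.66, 8.04 and 8.03. Of 21 genes of eicosanoid synthesis and sensing, 8 were higher, and *Ptger4*, a receptor for prostaglandin E2, rose most, by 2.25. Of 18 genes of arginine and itaconate metabolism and alternative activation, 7 were higher. *Arg1*, the arginase of alternatively activated macrophages, went from 2.83, 2.28 and 3.34 to 8.06, 5.09 and 5.73, with replicate 1 far above the others, and passed in 4 of the 6 fits with an array left out.

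Matrix, vascular and growth factor genes were raised in part. Of 27 genes of matrix and scar, 12 were higher, and *Tgfbi*, a matrix protein induced by TGF-beta, rose from 5.21, 5.14 and 4.998 to 9.06, 8.09 and 8.57. *Cd44*, the hyaluronan receptor, rose by 2.31, and *Lox*, which crosslinks collagen, by 1.97. Of 19 matrix metalloproteinases and inhibitors, *Timp1*, *Mmp14* (1.62) and *Mmp2* (1.61) were higher, and 10 of the list were at 1 d. Of 17 genes of the TGF-beta system, 6 were higher, with the receptor gene *Tgfbr2* (from 6.69, 6.53 and 6.57 to 8.38, 8.07 and 8.42) and *Nrros*, which anchors latent TGF-beta on microglia (1.11), among them. Of 16 endothelial and barrier genes, all had a difference above 0 and 5 were higher. *Vwf*, the platelet-binding factor of endothelial cells, went from 4.73, 5.36 and 4.91 to 6.82, 7.09 and 6.90, and the tight junction gene *Cldn5* from 7.36, 7.19 and 7.32 to 8.39, 7.90 and 8.15. None of 7 pericyte and smooth muscle genes passed, and 1 did without LPS replicate 3. Of 12 fibroblast genes 4 were higher, among them the collagen gene *Col3a1* (1.67) and the proteoglycan gene *Dcn* (1.45), and the count was 2 without LPS replicate 2 or 3 or without any 1 of the PBS replicates.

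Genes of neurons, myelin and energy metabolism were mostly not called. None of 11 striatal neuron markers passed, although all had a difference below 0 (median −0.07, from −0.26 to −0.02). The median over all genes was −0.02, also below 0. The dopamine receptor gene *Drd2* lay at 7.14, 7.50 and 7.20 and at 7.23, 7.45 and 7.05. Of 15 general neuronal genes, *Gad2*, which makes the transmitter GABA, was the 1 that was lower, from 8.70, 8.84 and 8.87 to 8.14, 8.39 and 8.09 (difference −0.59, adjusted p = 0.0141), and it passed in 2 of the 6 fits with an array left out. The synaptic gene *Snap25* lay at 11.78, 11.72 and 11.68 and at 11.64, 11.70 and 11.68, a difference of −0.05 with a 95% confidence interval of −0.22 to 0.11. None of 12 oligodendrocyte and myelin genes passed (median −0.02), and *Mbp*, myelin basic protein, lay at 12.06, 12.04 and 12.08 and at 12.01, 11.84 and 11.90. Of 6 oligodendrocyte precursor genes 1 was higher, and none were in 5 of the 6 fits with an array left out, all but the one without LPS replicate 2. None of 7 cortical neuron genes passed. None of 18 genes of oxidative phosphorylation passed (from −0.11 to 0.04). Of 16 glycolysis genes *Hk2*, an inducible hexokinase, rose by 2.01 and the glucose transporter gene *Slc2a1* by 0.63. None of 13 immediate early genes and none of 18 antioxidant and metallothionein genes passed, and *Mt1*, a metallothionein, differed by 0.33 at 4 d and by 1.28 at 1 d. Of the antioxidant and metallothionein genes 2 passed without LPS replicate 2 and 1 without PBS replicate 1.

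The falls were few, mostly small and spread unevenly over the pools. Over all probe sets with 1 symbol, 93 genes had at least 1 that was lower, against 35 with 1 probe set per gene. For the higher genes these numbers were 763 and 720. *Pmch*, the precursor of melanin-concentrating hormone made in the lateral hypothalamus, lay at 8.35, 9.48 and 6.84 in the PBS arrays and at 3.76, 4.02 and 6.10 in the LPS 4 d arrays, a difference of −3.60 (standard error 0.73, adjusted p = 0.0279 from limma). The groups did not overlap, which held for 11.8% of all genes in this direction and for all 35 that passed. For *Pmch*, however, PBS replicate 3 and LPS replicate 3 lay close to each other. *Tcf7l2*, a Wnt pathway factor that thalamic neurons express, lay at 7.07, 7.17 and 7.21 and at 5.72, 5.83 and 6.74, *Calb2*, the calcium-binding protein calretinin, at 7.23, 7.34 and 7.80 and at 6.23, 6.63 and 6.91, and *Ntng1*, an adhesion gene of thalamic neurons, at 7.53, 7.67 and 7.53 and at 6.19, 6.73 and 7.12. In these 4 genes LPS replicate 3 was the highest of the LPS arrays, and *Pmch* passed in 2 of the 6 fits with an array left out, *Tcf7l2* in 1, *Calb2* in 1 and *Ntng1* in 2. *Otx2*, a homeobox gene active in the choroid plexus, lay at 4.84, 4.40 and 5.07 and at 3.90, 3.61 and 3.30, a difference of −1.17, with replicate 3 the lowest, and passed in 3 of these fits. *Agt*, which encodes angiotensinogen and is made by astrocytes, lay at 6.10, 6.61 and 6.35 and at 4.73, 5.15 and 5.69, a difference of −1.16, and passed in 2.

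Markers of other brain regions had differences below 0 beside these falls. Of 18 hypothalamic and thalamic markers, 17 had a difference below 0 and 3 passed as lower, with a median of −0.55 against −0.02 over all genes. Their linear RMA values summed to between 2672 and 3319 over the PBS arrays and to between 1666 and 2459 over the LPS 4 d arrays, and the median difference from the PBS mean was −0.66, −0.77 and −0.17 in LPS replicates 1, 2 and 3. The neuropeptide genes *Hcrt* (−2.17), *Avp* (−1.36) and *Oxt* (−0.97) had differences that did not pass. Of 12 choroid plexus and ependymal markers, 11 had a difference below 0 and 1 passed as lower, with a median of −0.68 and sums of between 3342 and 4610 and of between 1641 and 3153. *Ttr*, the thyroid hormone carrier that the choroid plexus makes in bulk, made up most of these sums and did not pass (adjusted p = 0.208 from limma). Its values were 11.99, 11.52 and 11.81 after PBS and 11.45, 11.32 and 10.46 after LPS. Over the choroid plexus list the median difference from the PBS mean was largest in replicate 3, at −1.32, against −0.43 and −0.46 in replicates 1 and 2. The hypothalamic and thalamic markers and the choroid plexus markers were therefore lowest in different pools. At 1 d the medians were −0.08 and −0.25. These markers are chiefly expressed outside the striatum, and the part of tissue composition in the falls was not tested.

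**Figure D5:**
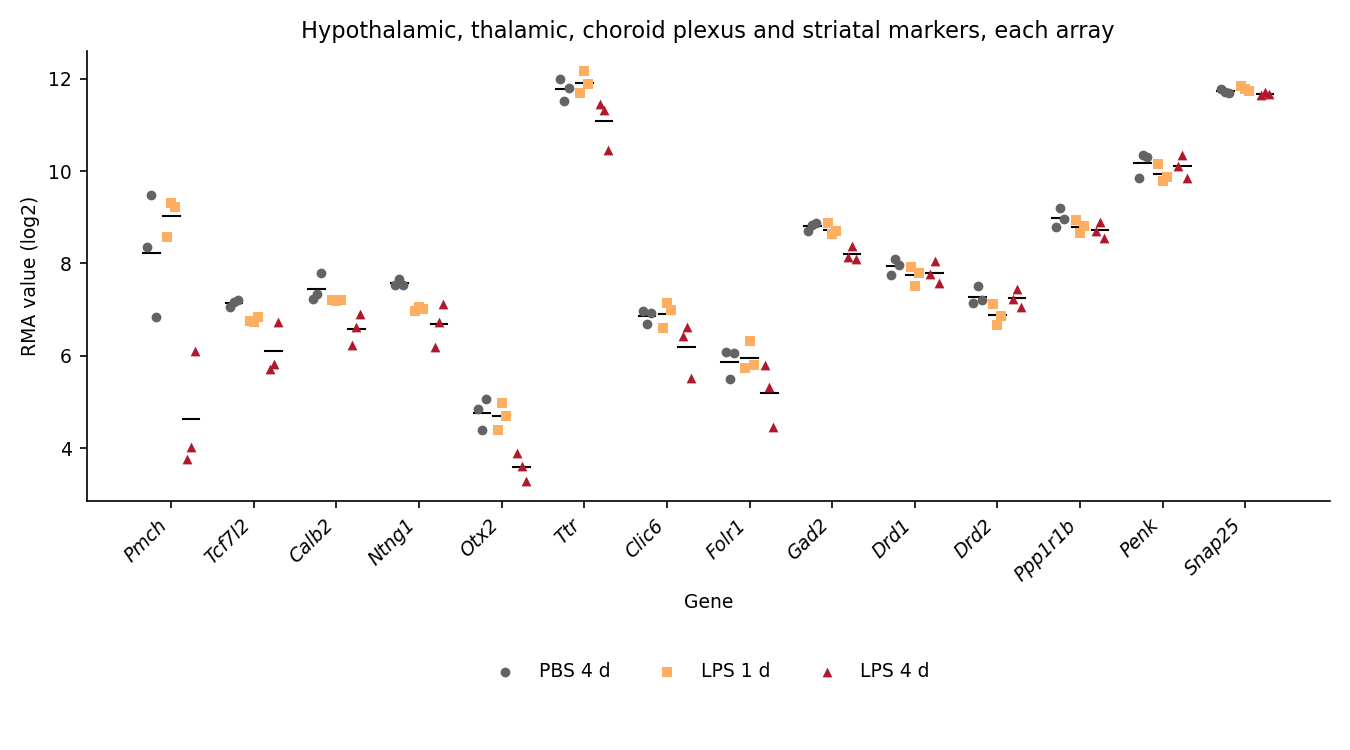
RMA values (y axis, log2) of 14 markers (x axis) of the hypothalamus and thalamus (*Pmch* to *Ntng1*), of the choroid plexus (*Otx2* to *Folr1*) and of striatal or other neurons (*Gad2* to *Snap25*), with 3 arrays each for PBS 4 d (grey circles), LPS 1 d (orange squares) and LPS 4 d (red triangles) and a bar at each mean. *Pmch* spreads from 6.84 to 9.48 over the PBS arrays, LPS 4 d replicate 3 is the highest LPS 4 d array for *Tcf7l2* (6.74) and the lowest for *Ttr* (10.46), and the PBS and LPS 4 d arrays of the striatal markers *Drd1* to *Penk* overlap.

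The other large falls had no theme fixed in a list. *Serpinb1b*, a protease inhibitor, passed in 3 of the 6 fits with an array left out and fell from 4.13, 4.56 and 4.61 to 2.77, 3.73 and 3.52, the citrate transporter gene *Slc13a5* from 5.39, 5.25 and 5.42 to 4.76, 4.02 and 4.59 (passed in 1), and *Myh3*, the embryonic myosin heavy chain, from 4.21, 4.07 and 4.27 to 2.89, 3.44 and 3.24 (passed in 2). *Herc1*, a ubiquitin ligase, lay at 6.92, 6.71 and 6.69 and at 5.97, 6.08 and 5.85, a difference of −0.80 that passed in all 6 fits with an array left out, but the mean over its 2 probe sets differed by −0.46 and did not pass (adjusted p = 0.0794). The transcripts *5330434G04Rik* (−0.87) and *AW046200* (−0.79), known by identifiers alone, passed in all 6 fits as well. *AW046200* lay at 3.58, 3.52 and 3.47 after PBS and at 2.84, 2.71 and 2.66 after LPS, around and below the background of 3.49, and its difference is limited by background. Of the 35 lower genes, 11 had an LPS mean and 4 a PBS mean at background. *Igsf1* (−0.86), *Ido1* (−0.81) and *Klhl14* (−0.76) passed in 1, 1 and 4. Among the 13 lower genes with more than 1 probe set, 12 were called by the probe set shown alone, whereas of 295 such higher genes every probe set passed in 92 and only the one shown in 169. The haemoglobin gene *Hba-a1*, which marks blood left in the tissue after perfusion, lay at 8.29, 8.28 and 7.96 after PBS and at 6.57, 7.49 and 7.01 after LPS, a difference of −1.15 (adjusted p = 0.0743), and its part in other values was not tested.

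The higher genes with the widest spread over the 3 LPS pools were *Arg1*, with an SD of 1.56, *Scgb3a1*, *Tgm1*, *Top2a* and *Ube2c*. *Scgb3a1*, a secretoglobin gene of airway epithelium, lay at 4.28, 5.88 and 4.14 after LPS and at 2.59, 3.07 and 2.74 after PBS, and unlike the others it was highest in replicate 2. *Tgm1*, a transglutaminase, lay at 5.85, 4.01 and 5.15 and at 2.68, 2.60 and 2.54, with replicate 2 the lowest. *Arg1*, *Tgm1*, *Top2a* and *Ube2c* were all highest in replicate 1 and lowest in replicate 2 among the LPS pools. *Scgb3a1* passed in 3 of the 6 fits with an array left out.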

How the data were processed

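RNA from 9 pools, each of 3 mice, was hybridised to Affymetrix HT MG-430 PM arrays, with 3 arrays for each of the groups PBS 4 d, LPS 4 d and LPS 1 d. The deposited values are log2 RMA expression values, which the authors made in Affymetrix Expression Console (version not given in the sources used here). Scanner output was not analysed here, no batch or date was given, and array medians lay between 4.32 and 4.37.

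After removal of 104 control entries, 45037 probe sets were fitted with limma 3.58.1 in R 4.3.3 (lmFit and eBayes, a mean for each of the 3 groups, 6 residual and 3.02 prior degrees of freedom), with Benjamini-Hochberg adjustment over all probe sets. The limits for passing, an adjusted p below 0.05 together with a 1.5-fold change, were those of the study's methods. Adjusted p values set each difference against the spread between pools, which limma estimated over all 9 arrays and moderated across probe sets. An exact permutation test of 3 against 3 arrays cannot give a two-sided p below 0.1. The platform annotation gave 1 symbol to 28898 probe sets, several to 551 and none to 15588. Each of 17097 genes was read from its probe set with the highest mean over the 9 arrays. Of 1045 genes in 59 lists, 917 had such a probe set.

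Genes were named by rule: the 15 largest rises and falls that passed, up to 5 passing members of each list (the 3 with the highest mean where fewer than 2 passed), the 5 with the largest SD after LPS and 15 chosen markers. *Ly6g*, one of these, had no probe set with its symbol alone and was not analysed here. *Avp*, *Gpr34*, *Hcrt*, *Lgmn*, *Mcm2*, *Mcm5*, *Oxt*, *P2ry12*, *Pcna*, *Tmem119* and *Trim30a* were named after their values were seen. The members and lists were chosen with earlier results of these data known. The fit was tested on simulated data. Alternatives covered the moderation, the arrays fitted, thresholds, a filter on dim probe sets, scaling, the probe set of a gene, the replicate number as a block and leaving out each array. Figures were drawn with matplotlib 3.10.9.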

Additional observations from a re-analysis of the deposited data

Results flagged for a closer look

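Of the 30 genes with the largest rises and falls 4 d after LPS, 11 also differed between LPS 4 d and LPS 1 d in the direct limma comparison of these arrays. Higher at 4 d were *Ms4a7* by 4.36 (standard error 0.20, adjusted p = 9.2e-05), *Apoc2* by 2.51 (0.43, adjusted p = 0.0165), *Cd72* by 1.83 (0.21, adjusted p = 0.00218), *Acp5* by 1.67 (0.32, adjusted p = 0.0301), *Adgre1* by 1.65 (0.15, adjusted p = 0.000706), *Cd52* by 1.49 (0.16, adjusted p = 0.00148) and *Lyz2* by 1.47 (0.14, adjusted p = 0.00102), all on the log2 scale with limma's standard error in parentheses. Lower at 4 d were *Ccl3*, with a difference of −2.18 (standard error 0.29, adjusted p = 0.00493), *Pmch* with −4.41 (0.73, adjusted p = 0.0145), *Agt* with −1.10 (0.23, adjusted p = 0.0461) and *Otx2* with −1.09 (0.21, adjusted p = 0.0345). Of all genes, 1.84% were higher and 1.37% lower at 4 d than at 1 d in that comparison, and the 30 genes were chosen for extreme values in the same LPS 4 d arrays. The arrays of the times did not overlap in any of the 11 genes, nor in 11.4% (higher at 4 d) and 9.76% (lower) of all genes. *Pmch*, *Agt* and *Otx2* lost their call against PBS without single arrays. From 1 d to 4 d, 1 of the 18 hypothalamic and thalamic markers was lower and 0 were higher. Of the 12 choroid plexus and ependymal markers, 2 were lower and 0 higher. *Pmch* and *Otx2* are themselves members of these lists, and the part of such markers in the difference was not tested. With 3 arrays a group, no single array was tested as an outlier.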

How the results depend on the processing

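The numbers of higher and of lower probe sets and genes stayed within 1.5 times under most settings, with these exceptions. Against 1163 probe sets and 720 genes higher and 155 probe sets and 35 genes lower, an ordinary test on the 6 arrays alone passed 225 and 147 higher and 13 and 3 lower, with 93 listed genes higher and 0 lower against 309 and 5. At a fold change of at least 2, 721 probe sets and 459 genes were higher and 17 and 5 lower, with 3 listed genes lower. The lower probe sets and genes numbered 248 and 53 with limma's trend and robust options, 55 and 10 with an ordinary test on 9 arrays (1 listed gene) and 366 and 94 with no fold threshold (9 listed genes), and limma on the 6 arrays passed 22 lower genes, 2 of them listed. With a single array left out, 893 to 1258 probe sets and 567 to 769 genes were higher and 106 to 197 and 14 to 44 lower, and 260 to 314 listed genes were higher and 1 to 6 lower. Of the higher genes 550 to 668 and of the lower genes 8 to 19 were shared with the full set in these fits. No named gene that had passed changed sign under any setting run. For most settings this was fixed beforehand, since a change of test or threshold leaves the difference as it is. Leaving out an array cannot reverse the sign of a gene whose groups do not overlap, which held for every gene that passed. With the replicate number as a block, 1068 and 672 were higher and 120 and 24 lower, with 296 and 5 listed genes. The numbers are not known to pair the pools. Deviations of same-numbered LPS 4 d and PBS arrays correlated at 0.0182 to 0.0216, and each array correlated best with its own number. These correlations are small, rest on 3 arrays a group and do not show pairing, which was not tested. Probe sets near background limit the fold changes of 180 higher genes. At an unadjusted p under 0.05, with no fold threshold, 1818 genes were higher and 1209 lower.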
